A study of Mus musculus with 6 samples.

Results

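Chaperonins are barrel-shaped protein machines that enclose an unfolded chain and let it fold inside. The cytosol holds TRiC, also called CCT, whose ring is built from 8 different but related subunits, the products of Tcp1, Cct2, Cct3, Cct4, Cct5, Cct6a, Cct7 and Cct8; actin and tubulin are its best known clients, and every ring needs 1 copy of each subunit. Mitochondria hold a barrel of a single protein, Hsp60, encoded by Hspd1, which is closed by a lid of Hsp10, encoded by Hspe1. Both kinds of chaperonin are part of the general protein-folding machinery and are abundant in growing cells. These 10 genes were taken by symbol from the 26216 gene names listed for RNA of sorted hematopoietic stem cells. The gene with the name Cct6a was listed in 2 entries, and the entry with the higher mean stands for it unless stated.

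The cells were long-term and short-term hematopoietic stem cells (LT/ST-HSCs), sorted in week 6 after transplantation from the bone marrow of mixed chimeras, as lineage-negative and Annexin-V-negative cells that carry sca1, c-kit and CD150 but lack CD48. The chimeras were lethally irradiated Ly5.1/Ly5.2 mice that had received Ltbr-/- LSKs (CD45.2) and Ly5.1 LSKs (CD45.1) in equal numbers, LSKs being the lineage-negative cells that hold the stem cells. For each genotype the cells of 6 chimeras were combined into 3 biological replicates, and the comparison asked how loss of LTβR, the lymphotoxin beta receptor, changes the RNA of HSCs in a shared environment. Ltbr-/- donors carried a homozygous germline deletion within Ltbr and were 13, 10 and 10 to 13 weeks old for replicates 1, 2 and 3. The Ly5.1 donors, which are wild type for Ltbr and congenic at CD45, were 7 to 13 weeks old for each of 3 replicates. Donor age, congenic background and genotype cannot be told apart in this design.

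Values are the deposited signal, a linear and already normalised value with no unit, of which the log2 was taken from the values to be the regularised log of the study. Ltbr itself was at 24.2, 26.4 and 23.1 in the Ltbr-/- replicates and at 564, 549 and 522 in the Ly5.1 replicates. Summed signal ranged from 11694500 to 13286100, but the files give no read counts, so the depth behind a single value is not known. The sums over all tested genes were higher in every Ltbr-/- sample, at 12947700 to 13254600 against 11662600 to 11956600 in Ly5.1 samples. All 10 HSC markers on the list were expressed, with a median log2 difference of -0.16, Ly6a (-0.39) and Meis1 (-0.23) called lower and Gata2 (0.22) called higher. Over all tested genes 10.6% were called higher and 4.18% lower, and these shares stand beside each marker list here. All 9 neutrophil lineage markers were called lower, beside 4.18% of all tested genes, with sums of 43919 to 44489 in Ltbr-/- and 57547 to 62249 in Ly5.1 samples. The 8 mast cell and basophil markers, with a median of -0.07, included Cma1 (1.32) and Cpa3 (0.56) called higher and Prss34 (-0.41) called lower. Of 7 monocyte and macrophage markers Emr1 (0.83) was called higher and Lyz2 (-0.42) lower. Of 4 tested B cell markers the immunoglobulin genes Ighm (-1.04) and Igkc (-1.21) were called lower and Cd79a (0.62) was called higher. Of 6 erythroid markers 1 was called, Hba-a1, a haemoglobin gene, which was higher (0.99). Of 80 ribosomal protein genes 77 were called higher, beside 10.6% of all tested genes, with a median of 0.79 on the log2 scale. In bulk samples fewer cells of a type and less RNA per cell cannot be told apart, and what these differences contribute to the values below was not tested.

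Of the 10 chaperonin genes, 6 were more abundant in Ltbr-/- than in Ly5.1 LT/ST-HSCs at a limma adjusted p under 0.05. They were Hspe1, Cct4, Cct5, Tcp1, Cct7 and Cct2, with log2 fold changes from 0.51 down to 0.20. The count depended on the processing. After quantile normalization 1 was higher (Hspe1) and 1 lower (Cct6a), beside 1246 higher and 914 lower of all 13108 tested genes. When samples were centred on ribosomal protein genes 0 were higher and 10 lower, but that centring called 12832 of the 13108 genes lower. Either without the filter on low values or without variance moderation limma called 0, with 9 at an unadjusted p under 0.05. As deposited, none was lower and none reached the 1.5-fold threshold of the study, where 6 had an unadjusted p under 0.05 and a lower threshold of 0.32 on the log2 scale kept 3. Across all 13108 tested genes 10.6% were called higher, 4.18% lower, and 2.72% higher with 1.5-fold or more. In 8 of the 10 genes all 3 Ltbr-/- values lay above all 3 Ly5.1 values, against 17.0% of all tested genes. Calls were more frequent among abundant genes, where the chaperonins belong. Of the 2033 genes with a mean at least that of Hspe1, the lowest member, 26.1% were called higher. Of the 641 genes with a mean at least that of Hspd1, the next lowest, 40.2% were called higher and the median change was 0.06 (log2), and 5 of the 9 chaperonin genes in that range were called.

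**Figure D1:**
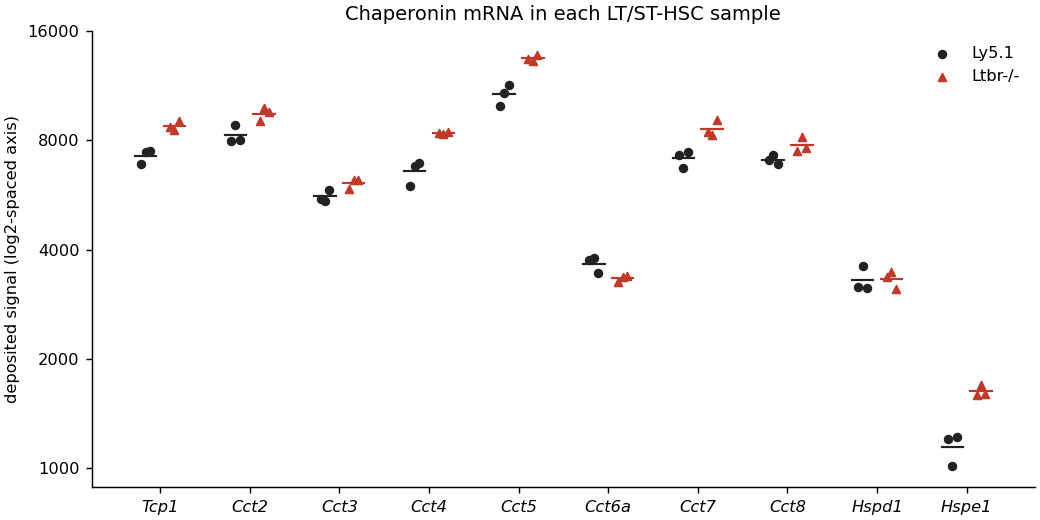
Deposited signal of the 10 chaperonin genes in 3 Ly5.1 (black circles) and 3 Ltbr-/- (red triangles) samples of LT/ST-HSCs on a log2-spaced axis, with short lines at the group means. The red symbols lie above the black ones for 8 genes, below them for Cct6a, and among them for Hspd1.

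Over the 8 TRiC subunits the median change was 0.23 on the log2 scale, that of all tested genes being -0.01, but the sign depended on scaling, being -0.03 after quantile normalization and -0.64 when samples were centred on ribosomal protein genes. The latter centring moved the median of all tested genes to -0.89. It shifts all genes of a sample alike, so the distance of TRiC from that median, 0.24, could not change. After quantile normalization, which can change it, the distance was -0.01. The summed signal of the 8 subunits was 64634, 65995 and 67180 in the Ltbr-/- samples and 54462, 57120 and 57490 in the Ly5.1 samples. The ratio of the group means was 1.17, and the sums did not overlap. The summed signal of all tested genes did not overlap either, at 12947700 to 13254600 in Ltbr-/- and 11662600 to 11956600 in Ly5.1 samples.

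Cct4 and Cct5, subunits known to bind ATP with high affinity, had the largest differences within TRiC. Cct4 was at 8397, 8321 and 8454 in Ltbr-/- samples and at 5977, 6789 and 6954 in Ly5.1 samples. The groups did not overlap, and the 3 Ltbr-/- values had an SD of 66.8, against 523 in Ly5.1. The log2 fold change was 0.36 with a standard error of 0.07 (limma adjusted p = 0.000219). Cct5, the most abundant subunit, was at 13432, 13269 and 13769 against 9941, 10824 and 11378. All Ltbr-/- values were higher, with a mean of 13490 ± 255 (SD, n = 3) against 10715 ± 725. Its log2 fold change was 0.33 ± 0.06 (SE, limma adjusted p = 0.000145). Under quantile normalization, however, neither kept its call, at 0.10 and 0.04.

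Tcp1 (CCT1), which gave the complex its name, was at 8703, 8539 and 9027 in Ltbr-/- samples and at 6883, 7420 and 7483 in Ly5.1 samples. The groups were separate, with means 20.6% apart (log2 fold change 0.27, SE 0.07, limma adjusted p = 0.00348). Cct7 was at 8424, 8290 and 9111 against 7312, 6727 and 7456. Here too every Ltbr-/- value was the higher (log2 fold change 0.26, SE 0.07, limma adjusted p = 0.00548), but without Ltbr-/- replicate 3, its highest sample, the value was 0.22 with an adjusted p of 0.071. Cct2 was at 9049, 9848 and 9578 against 7998, 8809 and 8047. These groups came close, the lowest Ltbr-/- and the highest Ly5.1 value being 9049 and 8809. Its log2 fold change of 0.20 (SE 0.07, limma adjusted p = 0.04) lost the call without Ltbr-/- replicate 2 or 3 or without Ly5.1 replicate 1 or 3, at 0.17 to 0.19. After quantile normalization none of the 3 was called, at -0.01 for Tcp1 (limma adjusted p = 0.911), 0.01 for Cct7 (limma adjusted p = 0.933) and -0.12 for Cct2.

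The other 3 subunits did not pass the test. Cct3 was at 5862, 6217 and 6222 in Ltbr-/- samples and at 5520, 5449 and 5853 in Ly5.1 samples. The groups nearly touched, at 5862 and 5853, and the 95% confidence interval of the log2 fold change ran from -0.02 to 0.26 (limma adjusted p = 0.261). Cct8 was at 7500, 8155 and 7631 against 7072, 7313 and 6873. Every Ltbr-/- value was higher, but by little, with an interval from -0.01 to 0.27 (limma adjusted p = 0.205). Cct6a was at 3266, 3355 and 3388 against 3759, 3789 and 3446. It was the one member whose Ltbr-/- values all lay below the Ly5.1 values, with a log2 fold change of -0.13 (SE 0.08, limma adjusted p = 0.25), and after quantile normalization it was called lower at -0.23 (adjusted p = 0.0227).

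**Figure D2:**
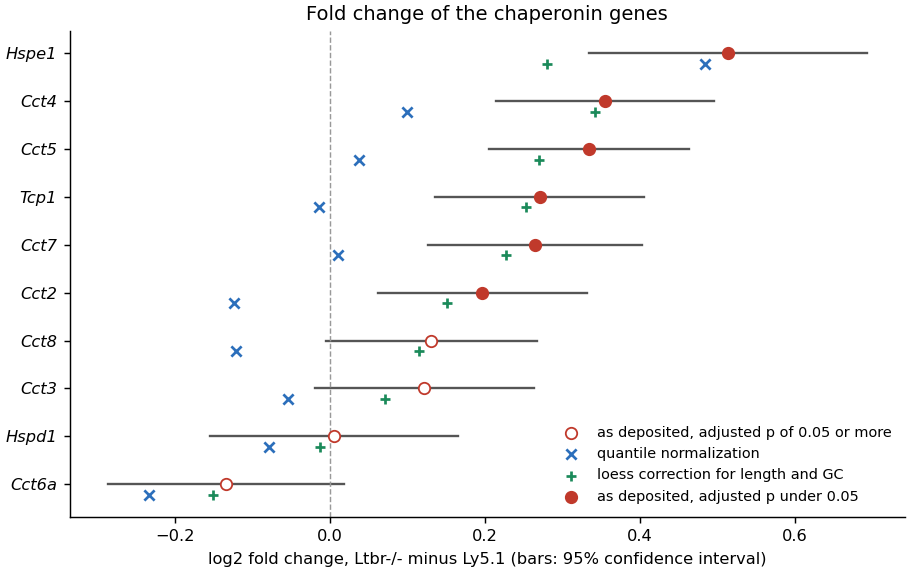
Log2 fold change (Ltbr-/- minus Ly5.1) of each chaperonin gene as deposited, with 95% confidence intervals, and the same value after quantile normalization (blue crosses) and after loess adjustment for the length and GC content of transcripts (green plus signs). The deposited values run from -0.13 for Cct6a to 0.51 for Hspe1, and the TRiC values gather around 0 after quantile normalization, while centring on ribosomal protein genes, not drawn, put all 10 below 0.

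The 2 entries of Cct6a differed in direction. The second, lower entry was at 1006, 1011 and 1028 in Ltbr-/- samples and at 870, 963 and 899 in Ly5.1 samples. Its Ltbr-/- values all lay above the Ly5.1 values, the reverse of the first entry. As a percentage of the first entry it was 30.8, 30.1 and 30.3 in Ltbr-/- and 23.1, 25.4 and 26.1 in Ly5.1 samples, a ratio that a scaling factor per sample cannot change (exact two-sided permutation test p = 0.1, the smallest that 3 against 3 samples allow). Fitted as separate features, neither entry passed, at -0.13 (limma adjusted p = 0.253) and 0.16 (limma adjusted p = 0.244), and their sum gave -0.07 (adjusted p = 0.567). Which transcripts each entry covers is not given in the sources used here. GENCODE M21 types the 7 transcripts it lists for Cct6a as processed transcript (4) or retained intron (3), although the gene encodes a TRiC subunit. The longest, of 2454 bases, which also sets the level of Cct6a per kb below, shares 15.8% of its 76-base windows with Psph, the neighbouring phosphoserine phosphatase gene.

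Divided by transcript length, the subunits stood at unequal levels, although the ring holds equal copies. In Ly5.1 samples Cct5 led with 5782 ± 391 signal per kb (SD, n = 3), followed by Cct2 with 4229 ± 232. Next came Tcp1, Cct8, Cct7, Cct3 and Cct4, between 2969 ± 135 and 2646 ± 211 per kb, and neighbours in that order overlapped. Cct6a was lowest of the subunits at 1493 ± 77.4 per kb, and did not differ from Hspe1 (1477 ± 148) and Hspd1 (1363 ± 111) beyond the spread. In Ltbr-/- samples Cct5 (7280 ± 138 per kb) and Cct2 (4845 ± 207) again led, Tcp1, Cct7, Cct4, Cct8 and Cct3 followed, each overlapping its neighbour, and Hspe1 (2103 ± 77.4) stood clear of Hspd1 (1367 ± 74.8) and Cct6a (1360 ± 25.8).

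The share of each subunit in the summed per-kb level of TRiC compares subunits within a sample, so that a scaling factor per sample drops out. Cct6a took 4.48%, 4.51% and 4.47% in the Ltbr-/- samples and 6.14%, 5.89% and 5.32% in the Ly5.1 samples. Its share was lower in every Ltbr-/- sample. Cct5 took 24.4%, 23.6% and 24.1% against 21.5%, 22.3% and 23.3%, and Cct4 took 11.4%, 11.0% and 11.0% against 9.65%, 10.4% and 10.6%. Both were higher in every Ltbr-/- sample. Cct3 took 9.99%, 10.4% and 10.2% against 11.2%, 10.5% and 11.2%, again without overlap. For these 4 subunits the exact two-sided permutation p was 0.1, the smallest possible, and for Tcp1, Cct2, Cct7 and Cct8, whose shares overlapped, it was 0.2 to 0.6.

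The mitochondrial pair gave unequal values. Hspe1 (Hsp10) was at 1587, 1696 and 1599 in Ltbr-/- samples and at 1201, 1012 and 1218 in Ly5.1 samples. The groups lay far apart, with a mean 42.8% higher in Ltbr-/- (log2 fold change 0.51, SE 0.09, limma adjusted p = 3.13e-05). It kept its call when any 1 sample was left out and after quantile normalization (0.48, adjusted p = 0.00014), but lost it without the filter (adjusted p = 0.059) and without moderation (adjusted p = 0.0759), and turned to -0.36 on ribosomal centring. The length and GC correction described below brought it to 0.28. Hspd1 (Hsp60) was at 3355, 3469 and 3114 against 3153, 3614 and 3143. Here the groups overlapped fully, and the log2 fold change of 0.01 had a 95% confidence interval from -0.15 to 0.17. The ratio of Hspe1 to Hspd1 within a sample was 0.473, 0.489 and 0.514 in Ltbr-/- and 0.381, 0.280 and 0.387 in Ly5.1 samples. The groups did not overlap, and Ly5.1 replicate 2 was lowest (exact two-sided permutation test p = 0.1, the smallest possible). The transcripts have 774 and 2423 bases, and such a ratio keeps the length trend described below. Upper-quartile genes under 1 kb had a median of 0.62 and those of 2 to 3 kb 0.04, beside a log2 difference of 0.51 for the ratio. The part of length in the ratio was not tested.

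**Figure D3:**
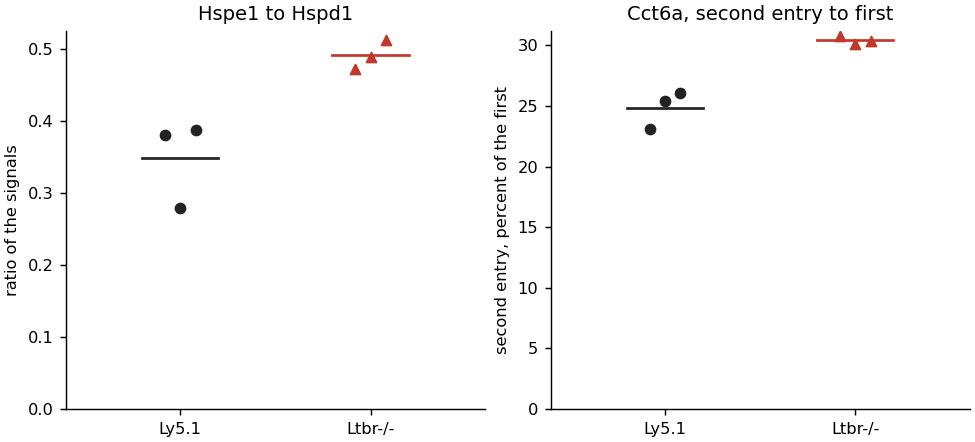
Ratios within each sample, 3 Ly5.1 (black circles) and 3 Ltbr-/- (red triangles), with lines at the group means: the signal of Hspe1 divided by that of Hspd1 on the left, and the second entry of Cct6a as a percentage of the first on the right. Both ratios are higher in all Ltbr-/- samples, 0.473 to 0.514 against 0.280 to 0.387 and 30.1 to 30.8 against 23.1 to 26.1. The Hspe1 transcript is shorter than that of Hspd1, and their ratio is not adjusted for length.

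Hspd1 and Hspe1 are neighbours on chromosome 1 and are read away from each other from a common start region, so that both are read from 1 locus. In RefSeq (GRCm38.p6) Hspd1 lies on the minus strand at chr1:55077833-55088243 and Hspe1 on the plus strand at chr1:55088148-55091317, so that the ends of the spans share 96 bases. The Hspe1 start is at 55088148 and the Hspd1 starts are at 55088243 and 55087932. The window from 250 bases before to 50 after the Hspe1 start is shown because it holds the downstream Hspd1 start (base 35) as well as, 216 bases on, the Hspe1 start, with the heat shock element GAANNTTC in capitals.
Hspe1, chr1:55087898-55088197, plus strand: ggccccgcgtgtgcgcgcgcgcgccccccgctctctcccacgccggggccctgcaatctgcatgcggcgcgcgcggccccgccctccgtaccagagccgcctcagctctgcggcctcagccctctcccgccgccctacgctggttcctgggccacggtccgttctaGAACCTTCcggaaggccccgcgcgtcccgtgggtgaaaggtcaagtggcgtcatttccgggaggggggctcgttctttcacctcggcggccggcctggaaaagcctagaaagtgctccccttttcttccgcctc
The match lies at chr1:55088064-55088071, 84 bases before the Hspe1 start. It also lies within the window of the downstream Hspd1 start, read on the minus strand as GAAGGTTC. The motif reads the same on both strands, and 7.86% of 32851 RefSeq promoter windows of 300 bases hold it. Of the 9 chaperonin genes with a window, which leaves out Cct4, Cct2 holds the only other match, GAAGTTTC at chr10:117063410-117063417 in the window of its second start.

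For the subunits the windows of the upstream Cct5 start and of Cct6a are shown, the highest and the lowest in fold change among those with a window. Capitals mark the CCAAT box (CCAAT), in 37.4% of all windows on either strand, and the GC box (GGGCGG), in 35.7%.
Cct5, chr15:31601797-31602096, minus strand: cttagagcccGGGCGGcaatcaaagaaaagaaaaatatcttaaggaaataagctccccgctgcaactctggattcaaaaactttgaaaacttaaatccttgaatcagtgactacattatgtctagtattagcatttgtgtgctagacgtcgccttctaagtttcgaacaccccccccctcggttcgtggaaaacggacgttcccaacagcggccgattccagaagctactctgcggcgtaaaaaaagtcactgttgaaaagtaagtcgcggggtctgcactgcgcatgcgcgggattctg
Cct6a, chr5:129787106-129787405, plus strand: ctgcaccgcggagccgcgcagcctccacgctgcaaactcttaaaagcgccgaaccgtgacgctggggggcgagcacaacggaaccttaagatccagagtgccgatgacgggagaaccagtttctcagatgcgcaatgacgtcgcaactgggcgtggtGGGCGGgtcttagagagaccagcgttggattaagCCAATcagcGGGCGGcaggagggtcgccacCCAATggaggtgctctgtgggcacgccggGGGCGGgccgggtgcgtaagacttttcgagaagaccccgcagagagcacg
This window of Cct5 holds 1 GC box and no CCAAT box and the window of its second start neither motif, whereas that of Cct6a holds 3 and 2, and no match overlaps another. CCAAT boxes were also found for Cct7 (3), Cct3 (2) and Tcp1 (1), and not in the windows of Cct2 and Cct8. The genes called higher had windows with (Tcp1, Cct7) and without (Cct2, Cct5, Hspe1) a CCAAT box. The E-box CACGTG, in 7.15% of all windows, was found in the window of the upstream Hspd1 start and in no other chaperonin window. A match describes the letters only.

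Transcript length moved with fold change over the whole data set, and Hspe1, with 774 bases, is the shortest member. Among the upper quartile of tested genes by mean the 205 with transcripts under 1 kb had a median of 0.62 on the log2 scale, and 86.3% were called higher, so that Hspe1 at 0.51 lay below that median. The 586 genes of 1 to 2 kb, the class of Cct2, Cct3 and Cct5, had a median of 0.21, and 45.1% were called higher. In the 618 genes of 2 to 3 kb, the class of the other 6 members, the median was 0.04, and 17.6% were called higher. Tcp1, Cct4 and Cct7 at 0.26 to 0.36 lay above the median of their class, Cct8 and Hspd1 nearer to it, and Cct6a below. After loess adjustment for length and GC content Hspe1 was at 0.28 (limma adjusted p = 0.0255), Cct4 at 0.34 and Cct5 at 0.27, and Cct2 lost its call at 0.15 (limma adjusted p = 0.114). The loess was fitted over tested genes of all levels, where those under 1 kb had a median of 0.12, against 0.62 in the upper quartile. It took 0.23 from Hspe1, so the adjusted value cannot show a difference beyond the length trend of abundant genes. The part of transcript length in these differences was not tested further.

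**Figure D4:**
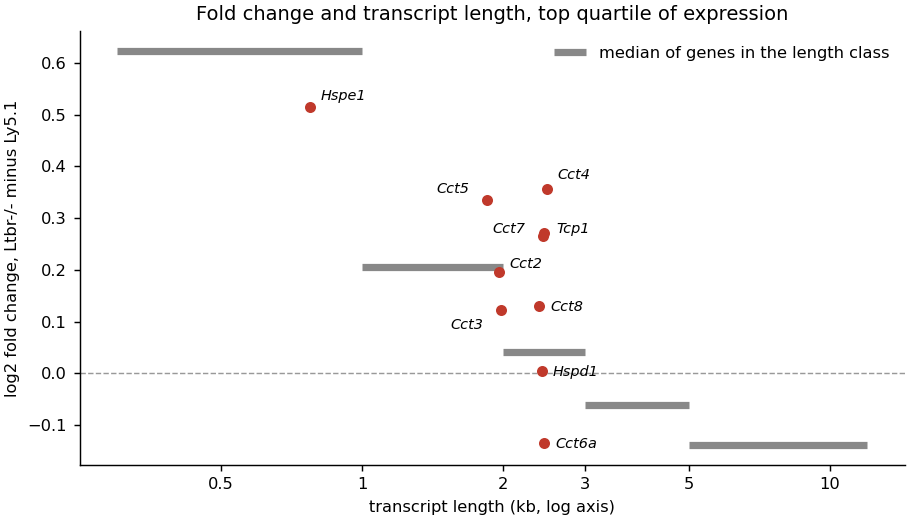
Log2 fold change (Ltbr-/- minus Ly5.1) of the 10 chaperonin genes (red points) against the length of their transcript in kb on a log axis, with grey bars at the median of upper-quartile genes in each of 5 length classes. The medians fall from 0.62 under 1 kb to -0.14 above 5 kb, Hspe1 lies below the bar of its class, and Cct4, Cct5, Cct7 and Tcp1 lie above theirs, all with samples scaled as deposited.

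Some members share sequence with other transcripts, where the counting could divide or misassign reads. In GENCODE M21, 33.3% of the 76-base windows of Hspd1, counted on both strands, also occur in other genes, mainly the pseudogene Hspd1-ps3, and 28.8% of those of Hspe1, mainly in AC117239.2. Tcp1 shares 21.0% with Acat2 and Acat3, Cct7 5.92% with Pradc1 and Cct8 5.05% with Usp16. Cct2, Cct3, Cct4 and Cct5 share none. The values of the pseudogenes were not analysed here, and values of Hspd1, Hspe1 and Tcp1 are uncertain to that extent. The donors differ by design at Ltbr and at Ptprc, which encodes CD45. Cct7 lies 39.8 Mb from Ltbr, Hspd1 and Hspe1 lie 83.0 Mb from Ptprc, and the other members are on other chromosomes. How far donor sequence extends around these loci is not given in the sources used here, and its part in the values was not tested.

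Prefoldin hands unfolded actin and tubulin to TRiC. Of its 6 subunits 3 rose and none fell, beside 10.6% higher calls over all tested genes and 35.8% among those with transcripts under 1 kb. Among upper-quartile genes under 1 kb the share was 86.3%, but Vbp1, Pfdn1, Pfdn4 and Pfdn6 were less abundant, at percentiles 52.3 to 72.8 by mean. The transcript lengths of the prefoldin genes are not given here. The median of the 6 was 0.28 as deposited and 0.26 after quantile normalization, but -0.60 when centred on ribosomal protein genes. Pfdn5 had a log2 fold change of 0.66 (limma adjusted p = 6.68e-07), Pfdn6, listed under its older symbol H2-Ke2, 0.53 (limma adjusted p = 9.54e-05) and Pfdn2 0.37 (limma adjusted p = 0.00342). Among the cofactors of TRiC and the chaperonin-like genes 6 of 8 were tested and 0 were called by limma, with 0 at an unadjusted p under 0.05. The shares over all tested genes were 10.6% higher and 4.18% lower. Pdcl, a phosducin-like cofactor of TRiC, was at -0.16 and Txndc9 at -0.13. Cct6b, the testis paralog of Cct6a, was at 5.53 in Ltbr-/- and 5.65 in Ly5.1 on average, too low to be tested.

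Actin and tubulin are the main clients of TRiC. Of 14 tested actin and tubulin genes 6 rose and none fell, beside 10.6% of all tested genes and 40.2% of those at least as abundant as Hspd1. Among the 6, Tuba1a, Tuba8, Tubb6 and Tubb4a were less abundant than Hspd1, as were Tubg1, Tubb2a and Tubb2b among the rest, so the 40.2% does not match the list in level. The median of the list was 0.15, which turned to -0.01 after quantile normalization and to -0.72 on ribosomal centring. Tuba8 was at 2258, 2371 and 2252 in Ltbr-/- samples against 1565, 1338 and 1495 in Ly5.1 samples, with a log2 fold change of 0.65 (limma adjusted p = 1.46e-07). The groups were well apart, and Tubb4a (0.48), Tubb4b (0.30), Tubb6 (0.26), Tuba1a (0.23) and Tubb5 (0.22) were also called. The cytoplasmic actins Actb and Actg1, at 0.06 and 0.11, were not. Of the 6 cofactors that assemble tubulin dimers, beside the same 10.6%, Tbca (0.30, limma adjusted p = 0.0371) and Arl2 (0.27, limma adjusted p = 0.0423) were called higher. Among 8 beta-propeller and other clients 1 was called in each direction, beside 10.6% higher and 4.18% lower over all tested genes. Cdc20, an activator of the anaphase-promoting complex, rose by 0.46 (limma adjusted p = 8.3e-05) and Vhl, a ubiquitin ligase subunit, fell by 0.26 on the log2 scale (limma adjusted p = 0.0306).

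**Figure D5:**
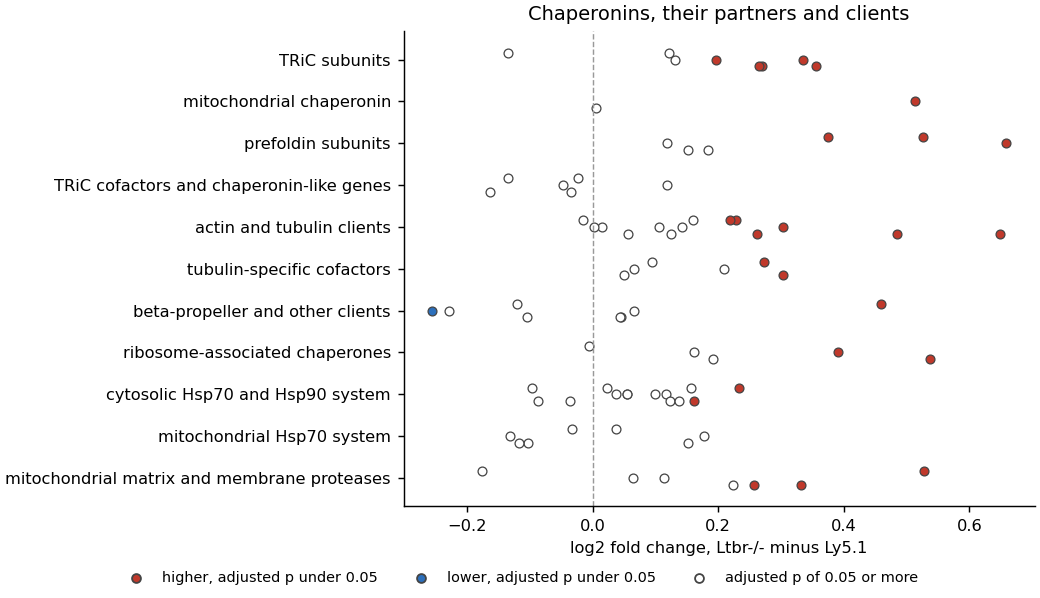
Log2 fold change (Ltbr-/- minus Ly5.1, samples scaled as deposited) of each tested gene in the chaperonin lists and in lists of their partners and clients, 1 point a gene, red or blue where called higher or lower by limma at an adjusted p under 0.05. Prefoldin reaches 0.66 and tubulins 0.65, no gene of the mitochondrial Hsp70 list is filled, and all these medians fall below 0 when samples are centred on ribosomal protein genes.

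Other chaperones meet chains earlier or work beside TRiC. Of 5 ribosome-associated chaperones Naca (0.54, limma adjusted p = 1.12e-06) and Btf3 (0.39, limma adjusted p = 0.000684), the partners of the nascent polypeptide-associated complex, were higher. The share was 10.6% of all tested genes and 26.1% of those at least as abundant as Hspe1, which not all of the 5 were. Of 14 genes of the cytosolic Hsp70 and Hsp90 system 2 were called higher, beside 10.6% of all tested genes and 26.1% of those at least as abundant as Hspe1. They were Cdc37 (0.23, limma adjusted p = 0.0216) and Hspa8 (0.16, limma adjusted p = 0.0347). After quantile normalization none was higher and 3 were lower, beside 1246 higher and 914 lower of all 13108 tested genes. Hsf1, the heat shock factor, was at 0.05 (limma adjusted p = 0.737).

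Mitochondrial Hsp70 passes imported chains to Hsp60. Of 7 genes of that system 0 were called by limma, beside 10.6% higher and 4.18% lower over all tested genes, with 0 at an unadjusted p under 0.05. After quantile normalization 2 were called lower, beside 914 of all 13108 tested genes. Grpel1, its nucleotide exchange factor, was at 0.18 (limma adjusted p = 0.201), Trap1, the mitochondrial Hsp90, at -0.13 (limma adjusted p = 0.254) and Hspa9, the Hsp70 itself, at -0.10 (limma adjusted p = 0.402). Of 7 mitochondrial proteases, whose values from -0.18 to 0.53 span those of the Hsp70 list, Lonp1 (0.53, limma adjusted p = 9.55e-07), Clpp (0.33, limma adjusted p = 0.00733) and Afg3l2 (0.26, limma adjusted p = 0.0302) rose. The share was 10.6% of all tested genes and 26.1% of those at least as abundant as Hspe1, but Clpp was less abundant than Hspe1. The median of the list was 0.22, 0.18 after quantile normalization and -0.65 on ribosomal centring. Lonp1, the matrix protease Lon, was at 5120, 5179 and 5211 in Ltbr-/- samples and at 3325, 3566 and 3889 in Ly5.1 samples. Of 15 genes of dividing cells 0 were called by limma, beside 10.6% higher and 4.18% lower over all tested genes. Their median was -0.10 (Mki67 at -0.11, Top2a at -0.06), with 2 at an unadjusted p under 0.05. After quantile normalization 8 were called lower, beside 914 of all 13108 tested genes.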

How the data were processed

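RNA of LT/ST-HSCs was sequenced as single 76-base reads from stranded mRNA libraries of 3 Ltbr-/- and 3 Ly5.1 replicates. The authors assembled reads with SeqMan NGen and quantified genes with ArrayStar, and the submitters' notes name DESeq2 and GRCm38 (mm10). Whether counting used strand is not given in the sources used here. The deposited values are a linear signal per gene, taken from the values to be 2 to the power of the regularised log, with size factors and shrinkage included. Raw counts were not used here, so no depth-based interval is given.

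Of 26595 entries the one with the highest mean was kept for each of 26216 names, and 13108 names (the upper 50% by mean) were tested. All 10 members passed. The log2 signal was fitted with limma 3.58.1 (R 4.3.3, lmFit and eBayes with trend), and p-values were Benjamini-Hochberg adjusted over all tested genes. Calls used an adjusted p under 0.05, alone or with 1.5-fold, and the code was tested on simulated data. P-values measure the spread between pooled replicates. Single values were compared with exact two-sided permutation tests.

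Members and gene lists were chosen with earlier results of these data known. All members are named, and of each partner list the genes called, up to 6, or else the 2 with the largest change. Hspa9, Actb, Actg1, Tubb2a, Tubb2b, Tubg1, Vbp1, Pfdn1, Pfdn4, Cct6b, Hsf1 and the marker genes were named beyond that rule after their values were seen. Transcripts came from GENCODE M21 (longest coding, otherwise longest) and promoter windows from RefSeq GRCm38.p6. Alternatives covered filters, scaling, variance models, pseudocount, repeated names, the replicate number as a block, a length and GC correction and leaving out each sample. The split of Cct6a into separate entries, and the length and GC correction of the counts, were chosen after seeing the data.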

Additional observations from a re-analysis of the deposited data

How the results depend on the processing

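The number of chaperonin genes called was 6 with the replicate number as a block (replicate block), and all-gene calls were 1372 higher and 564 lower against 1388 and 548. Same-numbered samples had correlations of 0.03, -0.01 and 0.09 between deviations from group means, and of the numbers only replicate 3 was the best match of its own samples, so the block was not used as a pairing. Leaving out 1 sample gave 4 to 6 called genes and a TRiC median of 0.20 to 0.25. Without a filter or without variance moderation 0 of 10 were called, with 9 at an unadjusted p under 0.05 in each. A lower fold threshold of 0.32 (log2) gave 3 genes. After quantile normalization 2 genes were called (Hspe1 higher, Cct6a lower), the TRiC median was -0.0341, Tcp1 -0.0136 and Cct2 -0.12. Centred on ribosomal protein genes, 10 were called, all lower, 7 past 1.5-fold, with a TRiC median of -0.64, Tcp1 -0.60, Cct2 -0.68, Cct3 -0.75, Cct4 -0.52, Cct5 -0.54, Cct7 -0.61, Cct8 -0.74, Hspd1 -0.87 and Hspe1 -0.36. The length and GC correction, added after seeing the data for this median, gave 0.19, with 5 genes called. Of all calls 71.7% were higher as deposited, 57.7% after quantile normalization, 52.2% after the length and GC correction and 0.163% on ribosomal centring. That centring called 12832 of 13108 tested genes lower. Without the trend Cct2 lost its call (adjusted p = 0.0912). Of 170 single-gene values under alternatives 135 kept their side of the threshold, 127 of them with the same sign and 8 uncalled values with the other sign (Hspd1 6, Cct3 1, Cct8 1), 22 lost their call, 2 gained one and 11 reversed. Causes were not tested.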
